A study of Mus musculus with 20 samples.

Results

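Macrophages in skeletal muscle were followed through 10 genes that these cells are known for: the receptors Csf1r and Cd14, the scavenger receptors Mrc1 and Cd163, the complement subunits C1qa and C1qb, the lysosome and phagosome proteins Cd68 and Mpeg1, and the cathepsins Ctss and Ctsc. They were chosen by name, with earlier results of these data known, and found through the gene symbol of the array platform's annotation. Every probe set with 1 of these symbols was taken, dim ones included. This gave 14 probe sets of the 22626 non-control probe sets, for 10 of 12393 genes. RNA from muscle of 20 mice had been hybridised to 20 Affymetrix 3' arrays, 1 per mouse, with 5 mice in each of 4 groups: trained transgenic mice (TGT), untrained transgenic mice (TGUT), trained wild-type mice (WTT, for some mice written wtt) and untrained wild-type mice (WTUT). The title of the series names the transgene as over-expression of MHC-I (major histocompatibility complex class I, the molecules that present peptides on the cell surface) and the training as endurance training. The labels name neither the construct, its promoter, the strain, the muscle, sex, age, training protocol nor a batch, so it is not known here in which cells the transgene is active. The groups were read from titles and source names, against which a description field stands that would make all 20 mice trained and transgenic, and that field was not used.

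Macrophages are resident and recruited phagocytes that clear debris and dying cells and, in muscle, take part in repair after damage. They depend on signals through the receptor encoded by Csf1r, take up ligands through scavenger receptors, make the complement subunits of C1q and break down what they engulf with cathepsins in lysosomes. In muscle RNA these transcripts come from a minority of cells, and muscle fibres make up most of the tissue.

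Of the 10 genes, Ctsc rose with the transgene (1.33-fold) and Mpeg1 rose with training (1.10-fold), each averaged over the other factor. These were the only calls at an adjusted p under 0.05 among the 11 tested macrophage probe sets in 7 contrasts. Of all tested probe sets, 1.23% were called for the transgene and 4.99% for training in the same contrasts. Of 20 fits that left out 1 mouse, 7 kept the Ctsc call and 2 kept the Mpeg1 call. Differences and folds are on the scale of log2(intensity + 66.7), which understates ratios of intensity, most of all for dim genes. Adjusted p-values are limma's after Benjamini-Hochberg adjustment over 13576 probe sets. In bulk muscle, a change in macrophage number, in RNA of a gene per macrophage or in RNA from other cells cannot be told apart. This holds for every difference given here. The promoters of Ctsc and Mpeg1 are shown here, with that of C1qb. At a dim C1qb probe set, paired with C1qa after the values were seen, the level followed C1qa from mouse to mouse (r = 0.90). With the brightest C1qb probe set this pair did not pass (r = 0.525, permutation p adjusted over 45 pairs = 0.59). The sequences are RefSeq's, of build GRCm38.p6, and cover the 250 bases before the gene's start, 5′ to 3′ on the gene's strand. Capitals mark GAGGAA, the core of a site bound by the myeloid factor PU.1, on either strand (TTCCTC when read on the gene's strand).
Ctsc, chr7:88277835-88278084, plus strand: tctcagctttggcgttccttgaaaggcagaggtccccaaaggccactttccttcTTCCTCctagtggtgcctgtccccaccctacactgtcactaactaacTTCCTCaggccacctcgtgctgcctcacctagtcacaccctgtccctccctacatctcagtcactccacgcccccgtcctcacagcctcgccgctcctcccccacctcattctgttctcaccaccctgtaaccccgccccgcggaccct
Mpeg1, chr19:12460520-12460769, plus strand: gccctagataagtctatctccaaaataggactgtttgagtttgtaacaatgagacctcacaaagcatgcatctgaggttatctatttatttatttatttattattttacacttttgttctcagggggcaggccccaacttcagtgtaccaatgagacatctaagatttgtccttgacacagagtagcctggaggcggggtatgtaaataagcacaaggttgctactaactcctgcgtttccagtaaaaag
C1qb, chr4:136886201-136886450, minus strand: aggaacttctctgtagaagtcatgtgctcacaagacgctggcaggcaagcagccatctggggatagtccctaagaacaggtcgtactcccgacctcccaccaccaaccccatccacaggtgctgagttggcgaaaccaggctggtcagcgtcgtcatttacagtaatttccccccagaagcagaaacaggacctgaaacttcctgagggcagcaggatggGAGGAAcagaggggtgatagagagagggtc
The RefSeq promoter table had an entry for 7 of the 10 genes and none for C1qa, Cd14 or Csf1r. The 6 letters occurred in 5 of these 7 promoters, with 2 copies in Ctsc, 1 in C1qb and 0 in Mpeg1, and in 23.3% of all 32851 promoters of the same length. A match is a description of these letters and not of a bound site.

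The arrays were close to each other in level, with median intensities of 157 to 175. The number of empty cells, values that are missing in the deposited table, ran from 4 to 822 of 22690 probe sets per array. The mouse wtt-137 had 822 and TGT-133 had 386. The log2 ratio of the 3' over the 5' control probe set of Gapdh, which reads RNA integrity, ran from -0.06 to 0.10. Muscle fibre markers were present in every mouse, with Ckm, the creatine kinase of muscle, at a mean intensity of 18415. In any contrast 0 of the 6 muscle markers were called, where 0% to 4.99% of all tested probe sets were called. Of the 14 macrophage probe sets, 11, for 8 genes, passed a filter on mean level over all 20 mice, blind to group, at an intensity of about 126. Cd163, Cd68 and 1 C1qb probe set (the plain one) did not, and their adjusted p comes from a fit without the filter.

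**Figure D1:**
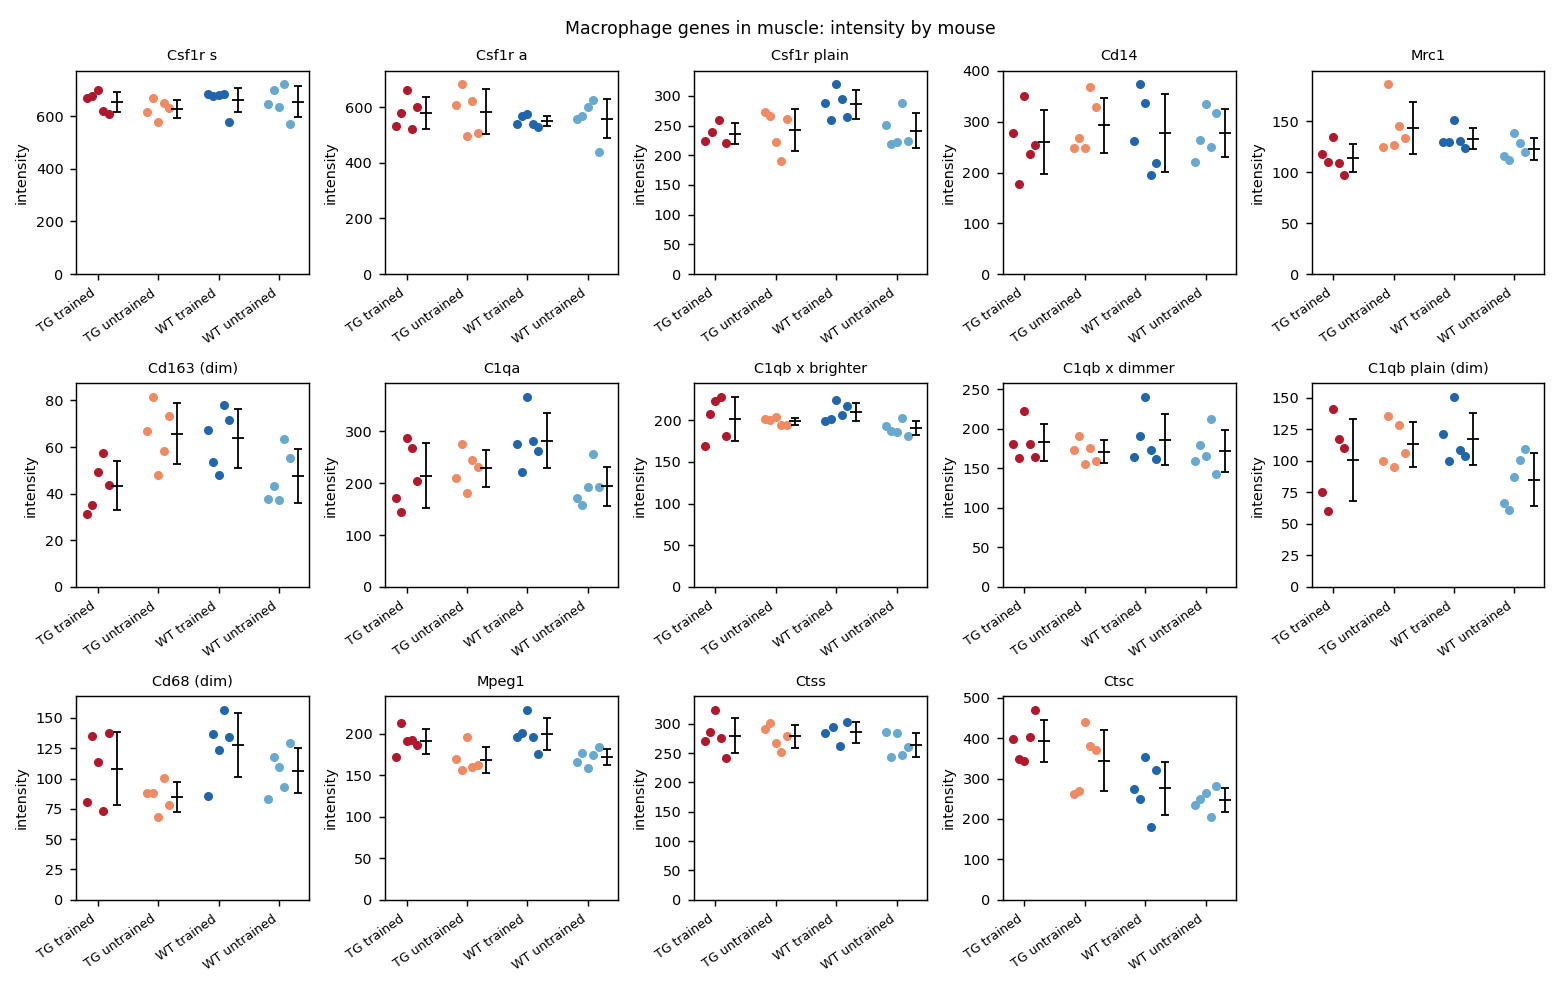
Intensity (linear scale, from 0) of each of the 14 macrophage probe sets in the 20 mice, with 1 point per mouse and, to its right, the group mean with its SD (n = 5, and 4 where a cell is empty). The mean of Ctsc is higher in both transgenic groups than in either wild-type group.

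No probe set of the receptors Csf1r and Cd14 passed the test in any contrast. Csf1r, the receptor for the growth factors CSF1 and IL-34, is measured by 3 probe sets, named here by the suffix of their identifiers (s, a and plain, the last ending in _at alone), and the s probe set, with the highest values, is the one followed. It averaged 654 ± 38.8 in trained transgenic, 628 ± 34.9 in untrained transgenic, 660.0 ± 46.2 in trained wild-type and 655 ± 59.4 in untrained wild-type mice (SD, n = 5 each). The groups overlapped, and the difference between transgenic and wild-type mice, averaged over training, was -0.03 ± 0.05 on the log2 scale (SE). The 95% interval of that difference ran from -0.13 to 0.07, and the training difference averaged over genotypes was 0.03 ± 0.05, with an interval from -0.06 to 0.13. The other Csf1r probe sets did not pass the test either. At the plain Csf1r probe set, the trained transgenic mice lay at 224, 239, 259.9 and 221 (4 mice, TGT-133 being empty) and the trained wild-type mice at 288, 259.6, 319.9, 295 and 264, a log2 difference of -0.22 ± 0.08 that missed the threshold (limma adjusted p = 0.31). The 3 probe sets also agreed only in part between mice. The correlation of the deviations from the group means was r = 0.65 between the s and a probe sets (Spearman's rho = 0.56). Its permutation p, adjusted over 10 such relations, was 0.010 for r and 0.048 for rho. Without the 2 mice farthest from the median of the s probe set, r was 0.55. For the s and a probe sets with the plain one, r was 0.33 and 0.20, and neither passed. The 10 relations were chosen after the values were seen.

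Cd14, the co-receptor through which Toll-like receptor 4 recognises lipopolysaccharide, varied more between single mice than between groups. It had an intensity of 278, 178, 352, 236 and 254 in trained transgenic mice and 249, 269, 249, 369 and 328 in untrained transgenic mice, against 262, 374, 338, 195 and 219 in trained wild-type mice and 220.1, 264, 335, 250.4 and 317 in untrained wild-type mice. All 4 groups overlapped and the group means lay between 259.8 and 293. The transgene difference averaged over training was -0.0043 ± 0.11 and the training difference -0.08 ± 0.11, and the 95% interval of the training difference ran from -0.305 to 0.141. The other genes of the CD14 and Toll-like receptor 4 pathway, a list of 13 of which 10 are on the array, gave 0 calls among 9 tested in any of the 7 contrasts. Of all tested probe sets, 0% to 4.99% were called, depending on the contrast. Nfkbia, the inhibitor of the transcription factor NF-kappa-B and the member of that list with the highest values, had a training difference of -0.22 ± 0.12 (adjusted p = 0.32).

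Scavenger receptors had means in opposite order at the 2 training states, lower in transgenic than in wild-type mice when trained and higher when untrained, and none of these differences passed the test. Mrc1 encodes the mannose receptor CD206 and marks macrophages of a resident, tissue-repair kind. It had an intensity of 118, 110.1, 134.9, 109 and 96.9 in trained transgenic mice and 125.0, 187, 126.3, 145.6 and 133.8 in untrained transgenic mice, against 129.9, 129.8, 151, 130.9 and 123 in trained wild-type mice and 116, 112, 138.4, 128.976 and 120.2 in untrained wild-type mice. In the transgenic mice the trained values lay mostly below the untrained ones, and only 1 trained transgenic mouse, TGT-133, exceeded 124.99, the lowest untrained value. The training difference in transgenic mice was -0.22 ± 0.07, with an adjusted p of 0.12 by limma, and that in wild-type mice was 0.07 ± 0.07. Cd163 encodes the receptor that takes up haemoglobin bound to haptoglobin, and it was dim in every mouse. It had an intensity of 31.2, 35.4, 49.2, 57.4 and 43.6 in trained transgenic mice and 67.1, 81.6, 48, 58.5 and 73.4 in untrained transgenic mice, against 67.3, 53.7, 48.1, 78.2 and 71.7 in trained wild-type mice and 37.9, 43.2, 37.1, 63.6 and 55.4 in untrained wild-type mice. Its untrained transgenic and trained wild-type mice were the higher groups, and the other groups the lower ones, and every group overlapped every other. The training difference in transgenic mice was -0.27 ± 0.08 (adjusted p = 0.15), against 0.19 ± 0.08 in wild-type mice (adjusted p = 0.70).

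The complement subunits C1qa and C1qb form the recognition part of the first complement component with C1qc. C1qa and 2 of the 3 C1qb probe sets, the plain and the brighter x, had means in the same opposite order, as did Cd14 and Ctss, and again no difference passed the test. C1qa had an intensity of 171, 143.6, 288, 268 and 204 in trained transgenic mice and 211, 276, 181, 245 and 231 in untrained transgenic mice, against 276, 221, 367, 282 and 263 in trained wild-type mice and 171, 158, 194, 256 and 193 in untrained wild-type mice. The trained wild-type mice were the highest group and the untrained wild-type mice the lowest, with 4 of the 5 trained values above the highest untrained value. The log2 training difference was -0.09 ± 0.14 in transgenic mice, and 0.42 ± 0.14 in wild-type mice, a 1.33-fold difference that missed the threshold (limma adjusted p = 0.35). C1qb is measured by 3 probe sets, of which the plain one has the suffix of probe sets designed for 1 gene, and the other 2, the brighter and the dimmer x probe set, carry a suffix (x) that marks probes which can also bind other transcripts. At the plain probe set C1qb had an intensity of 75.1, 60.002, 140.6, 117 and 110.3 in trained transgenic mice and 100.1, 135.4, 95, 128.4 and 106 in untrained transgenic mice, against 121, 99.6, 151, 109 and 104 in trained wild-type mice and 66.5, 60.8, 87.3, 100.2 and 109 in untrained wild-type mice. The lowest group was again untrained wild-type mice, and the groups overlapped. The training difference was -0.12 ± 0.12 in transgenic and 0.28 ± 0.12 in wild-type mice (adjusted p = 0.76 and 0.70). At the brighter x probe set the same differences were 0.01 ± 0.05 and 0.10 ± 0.05, and at the dimmer one they were 0.07 ± 0.09 and 0.08 ± 0.09, so that the probe sets for C1qb did not show the same size of difference. The other complement genes, 5 tested of 9 on the array, gave 0 calls in any contrast, where 0% to 4.99% of all tested probe sets were called. Among these complement genes, C1qc, named because it is the partner subunit and after its values were seen, had a training difference of -0.11 in transgenic and 0.33 in wild-type mice.

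The interaction, the training difference in transgenic minus that in wild-type mice, was negative for these genes. It was -0.46 ± 0.12 for Cd163, -0.29 ± 0.10 for Mrc1, -0.50 ± 0.19 for C1qa and -0.40 ± 0.17 for the plain C1qb probe set, with unadjusted limma p-values of 0.00086, 0.0092, 0.017 and 0.028. Cd163 and the plain C1qb probe set are dim and did not pass the filter, and the C1qb probe sets that did gave -0.09 ± 0.08 (brighter x, unadjusted p = 0.24) and -0.02 ± 0.12 (dimmer x, 0.90). C1qc, again named after its values were seen, had -0.44. Adjusted over all tested probe sets, none passed: every adjusted p among the macrophage probe sets was 0.9998 or 0.9999. Of the 11 tested macrophage probe sets, 0 were called, against 0 of 13576 probe sets on the array (0%), and 2 had an unadjusted p under 0.05, against 2.91% of all tested. The interaction was negative in 8 of 11 tested macrophage probe sets, with a median of -0.09 beside -0.0022 over all tested probe sets. For the other 6 genes, each by its brightest probe set, the interaction was 0.04 for Csf1r (0.0076 at its a probe set and -0.22 ± 0.12 at its plain one, unadjusted p = 0.074), -0.13 for Cd14, 0.03 for Cd68, -0.02 for Mpeg1, -0.09 for Ctss and 0.07 for Ctsc.

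Lysosome and phagosome genes held the training call. Mpeg1 encodes perforin-2, a pore-forming protein that acts on microbes taken up by phagocytes. It had an intensity of 172, 214, 191, 192 and 187 in trained transgenic mice and 169, 156, 196, 160.3 and 162 in untrained transgenic mice, against 196, 201, 229, 196 and 175 in trained wild-type mice and 166, 176, 159, 175 and 184 in untrained wild-type mice. The trained mice were the higher in both genotypes, the groups overlapped, and the highest value belonged to wtt-137. Averaged over genotypes, Mpeg1 rose by 0.14 ± 0.04 on the log2 scale, 1.10-fold, with an adjusted p of 0.046 by limma. The difference was 0.13 ± 0.06 in transgenic mice and 0.15 ± 0.06 in wild-type mice, and neither passed alone (adjusted p = 0.24 and 0.45). The call is 1 of 11 macrophage probe sets tested, where 4.99% of all tested probe sets were called for training. It was lost in 18 of 20 fits that left out 1 mouse, with adjusted p up to 0.089, and held only without TGUT-145 or WTT-144 (log2 difference 0.16 in both). It was also lost without the filter on dim probe sets (adjusted p = 0.073), with arrays centred on their medians (0.070) and without both wtt-137 and TGT-133, the arrays with the most empty cells (0.12 ± 0.04, adjusted p = 0.097). Of 5 tested fibroblast markers, 1, Col3a1, a chain of type III collagen, rose with training (1.02 ± 0.28, adjusted p = 0.04). That call was kept in 6 of 20 fits that left out 1 mouse (without TGT-133, TGUT-145, TGUT-146, WTT-144, WTUT-136 or WTUT-142) and in 9 of 12 other settings, with adjusted p up to 0.081. The summed level of 6 markers ran from 5510 to 7964 in trained transgenic mice, 5998 to 7358 in untrained transgenic mice, 5423 to 7075 in trained wild-type mice and 3870 to 6441 in untrained wild-type mice, which overlap, with 0 of the markers listed at 0. Their part in the Mpeg1 result was not tested.

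Cd68 encodes a glycoprotein of late endosomes and lysosomes and is used widely as a macrophage marker. It had an intensity of 80.3, 135.1, 114, 73 and 137.7 in trained transgenic mice and 88.1, 88.2, 68.1, 101 and 78.3 in untrained transgenic mice, against 85.9, 137.1, 124, 157 and 133.999 in trained wild-type mice and 83, 118, 109, 92.9 and 129.2 in untrained wild-type mice. It was dim, and its groups overlapped. The difference between transgenic and wild-type mice averaged over training was -0.18 ± 0.08 (adjusted p = 0.33), and the training difference was 0.18 ± 0.08 (adjusted p = 0.27), so neither passed the test.

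The cathepsins are lysosomal proteases. Ctss, cathepsin S, which trims the invariant chain of MHC class II in antigen-presenting cells, was close in all groups. Its intensity averaged 279.8 ± 29.7 in trained transgenic, 278 ± 19.3 in untrained transgenic, 286 ± 17.9 in trained wild-type and 264 ± 20.3 in untrained wild-type mice (SD, n = 5, and 4 in trained wild-type mice, where wtt-137 was empty). Its transgene difference averaged over training was 0.02 ± 0.05 and its training difference 0.05 ± 0.05, with the groups overlapping. Ctsc, cathepsin C, activates the serine proteases of neutrophils, mast cells and cytotoxic lymphocytes. Ctsc had an intensity of 397, 348, 343, 404 and 470.3 in trained transgenic mice and 262, 270.1, 439, 379 and 369.6 in untrained transgenic mice, against 274, 249, 353, 181 and 319.9 in trained wild-type mice and 234, 249, 263, 206 and 282 in untrained wild-type mice. All 5 trained transgenic mice lay above 4 of the 5 trained wild-type mice but 2 of them lay below wtt-137, the highest wild-type mouse. Averaged over training, Ctsc rose by 0.41 ± 0.09, 1.33-fold, in transgenic mice (adjusted p = 0.042 by limma, 95% interval 0.21 to 0.60). The difference was 0.44 ± 0.13 in trained mice and 0.37 ± 0.13 in untrained mice, and neither passed alone (adjusted p = 0.23 and 0.40). The size was close in every fit that left out 1 mouse (0.35 to 0.45), and the call was kept without TGT-133, TGUT-131, TGUT-139, TGUT-147, wtt-137, WTT-144 or WTUT-142 and lost without each of the other 13 mice, with adjusted p of at most 0.083. It was also lost without the filter on dim probe sets (adjusted p = 0.058) and with arrays centred on their medians (0.056). Among the 11 tested macrophage probe sets this was the 1 call for the transgene averaged over training, where 1.23% of all tested probe sets were called. Of the other lysosomal proteases and cystatins, 0 of 15 tested were called in any contrast, where 0% to 4.99% of all tested probe sets were called. For the transgene, 3 of 15 lay above 0, with a median of -0.09 beside 0.0042 over all tested probe sets.

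A B cell marker and an endothelial marker fell with the transgene averaged over training, where Ctsc rose. In that contrast 1.23% of all tested probe sets were called, 123 of them lower and 44 higher in transgenic mice. The B cell list had 5 of 6 markers on the array and 1 tested, Ighm, the heavy chain of immunoglobulin M, which fell by 0.72 ± 0.13 in transgenic mice (adjusted p = 0.013). The summed level of the 5 B cell markers ran from 1099 to 1626 in trained transgenic mice, 1194 to 2157 in untrained transgenic mice, 1740 to 3535 in trained wild-type mice and 2069 to 2620 in untrained wild-type mice. This sum is mostly Ighm, with a mean intensity of 1615 over all mice. Cd79a, Cd79b, Ms4a1 and Jchain had 81, 89.1, 85.2 and 35.9 and did not pass the filter, so the sum says little about them. Of 4 tested endothelial markers, Cdh5, the cadherin of endothelial junctions, fell by 0.30 ± 0.06 (adjusted p = 0.022; 0.051 without TGT-143 and 0.052 without WTT-141), and the summed level of the 5 endothelial markers ran from 1133 to 1392 in trained transgenic mice, 1231 to 1574 in untrained transgenic mice, 1380 to 1575 in trained wild-type mice and 1210 to 1867 in untrained wild-type mice. No marker of either list was listed at 0. Neutrophils, mast cells and cytotoxic lymphocytes are cells in which Ctsc is known to act. In any contrast 0 of 6 tested neutrophil, 0 of 2 mast cell and 0 of 2 T cell markers were called, where 0% to 4.99% of all tested probe sets were called. For the transgene averaged over training, 3 of 6 neutrophil markers (median 0.02), 2 of 2 mast cell markers (0.04) and 2 of 2 T cell markers (0.07) lay above 0. The median over all tested probe sets was 0.0042. Their part in the Ctsc result was not tested.

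**Figure D2:**
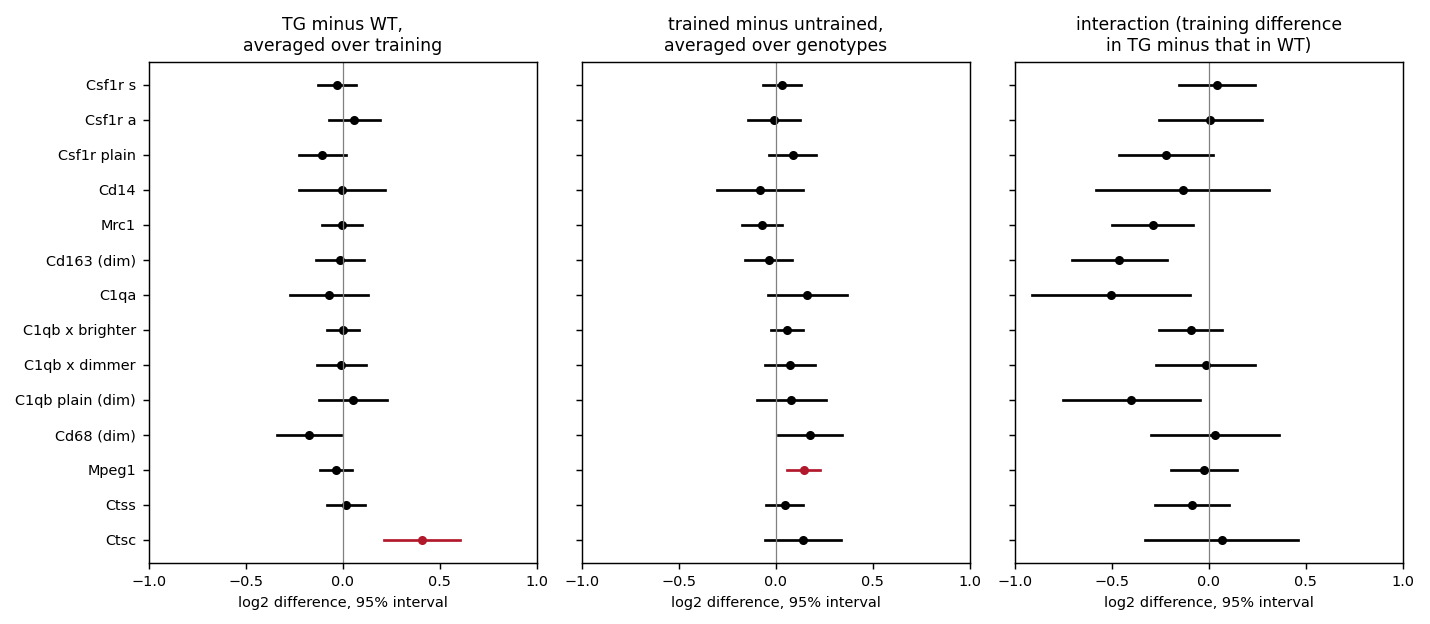
Log2 differences (points) with 95% intervals (lines) for the 14 macrophage probe sets, in 3 contrasts: transgenic minus wild-type averaged over training, trained minus untrained averaged over genotypes, and the interaction. Red marks the calls at an adjusted p under 0.05, Ctsc for the transgene and Mpeg1 for training.

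Within single training states and genotypes no macrophage probe set passed the limma test. For the transgene in trained mice, 0 of 11 were called and 4 had an unadjusted p under 0.05, where 0.0516% of all tested probe sets were called and 12.5% had such an unadjusted p. In untrained mice the counts were 0 and 1 of 11, against 0.110% and 8.12% of all tested. For training in transgenic mice they were 0 and 2 of 11, against 0.309% and 17.4%, and for training in wild-type mice 0 and 3 of 11, against 0% and 7.87%. The medians of the 11 macrophage probe sets were -0.05 for the transgene in trained mice and 0.06 in untrained mice, and 0.0032 for training in transgenic and 0.09 in wild-type mice. Over all tested probe sets these medians were 0.0050, 0.0048, 0.0045 and -0.0002. The dim Cd163, adjusted in the limma fit without the filter on dim probe sets, passed for training in transgenic mice when TGUT-145 was left out (-0.32, adjusted p = 0.047). With the filter, which leaves Cd163 out, 762 probe sets on the whole array were called for that contrast without TGUT-145, against 42 with all mice. Without the filter, 6 were called with all mice. When limma weighted the arrays by their quality, which called 900 probe sets on the whole array for the transgene in trained mice and 2364 for training in transgenic mice, Ctsc (0.51) and the plain Csf1r probe set (-0.22) passed in the first and Mrc1 (-0.20) in the second. The dim Cd163 passed in both, again adjusted without the filter, while the counts of 900 and 2364 are with the filter. These contrasts share groups of mice and are not independent of each other.

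Other genes of macrophages and myeloid cells, a list of 38 with 35 on the array, gave 0 calls among 20 tested in each of the 7 contrasts. Of all tested probe sets, 1.23% were called for the transgene averaged over training, 4.99% for training averaged over genotypes and at most 0.309% in any other contrast. The median difference of the list was 0.04 for the transgene averaged over training, with 14 of 20 above 0. For training averaged over genotypes it was 0.04, with 15 of 20 above 0. Over all tested probe sets these medians were 0.0042 and 0.0019. Lgals3, which encodes the lectin galectin-3, has the highest values of that list and averaged 806 ± 84.6 in trained transgenic, 787 ± 41.2 in untrained transgenic, 795 ± 43.9 in trained wild-type and 771 ± 45.0 in untrained wild-type mice. Growth factors and chemokines that recruit and maintain macrophages gave 0 calls among 10 tested of 19, with a median of 0.02 for the transgene and 0.01 for training. Cxcl12, a chemokine and the brightest of that list, had a transgene difference of -0.02 ± 0.06. The summed level of the 35 macrophage and myeloid genes ran from 6469 to 7259 in trained transgenic mice, 6147 to 6744 in untrained transgenic mice, 6473 to 7459 in trained wild-type mice and 5861 to 7002 in untrained wild-type mice, which overlap throughout.

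The macrophage genes also varied between single mice. The coefficient of variation over the 20 mice, which includes the differences between groups, ran from 6.77% for the s probe set of Csf1r to 27.0% for Cd163, with 25.2% for Ctsc, 24.5% for Cd68, 24.1% for C1qa and 20.8% for Cd14. The mouse wtt-137 held the highest value of 5 of the 13 macrophage probe sets it measured, and of C1qa among them. TGUT-139 was the highest in 3, and TGT-132 and WTUT-142 were the lowest in 3 each. To set the groups aside, each mouse's log2 level was taken as its deviation from its group mean, and the genes were paired over 20 mice, with a permutation test of 100000 shuffles within groups, adjusted over the pairs. With 1 probe set per gene, the brightest, 0 of the 45 pairs passed, 4 had an unadjusted p under 0.05, and the median r was 0.04, with 25 pairs above 0. Rank correlation also gave 0 pairs. The strongest positive pair was Mrc1 with C1qa (r = 0.58, adjusted p = 0.30), and the strongest negative pair was Csf1r with Ctsc (r = -0.55, adjusted p = 0.30).

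**Figure D3:**
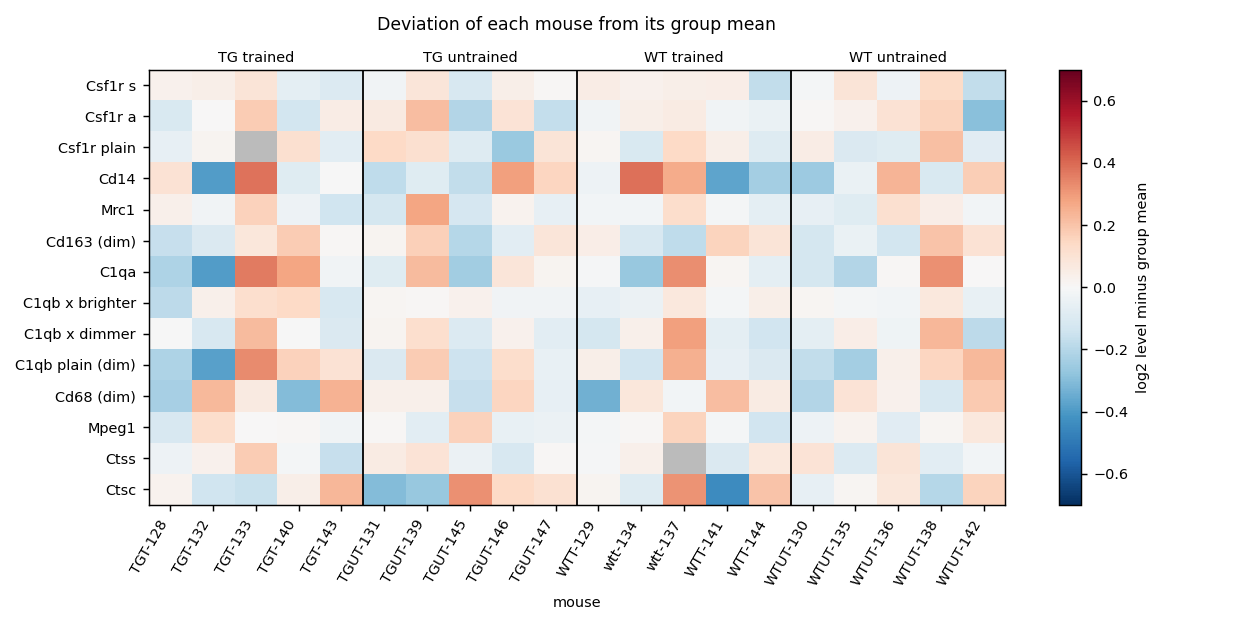
Deviation of each mouse (columns, ordered by group) from its group mean in log2 level for the 14 macrophage probe sets (rows), red above and blue below the mean, grey where the cell is empty. The mice wtt-137 and TGT-133 stand high in C1qa and the C1qb probe sets.

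The complement subunits were the closest pair, when the plain C1qb probe set was used. C1qa and the plain C1qb probe set correlated with r = 0.90 and Spearman's rho = 0.89 over 20 mice (permutation p = 1e-05 and 3e-05, the first being the smallest that the shuffles can give, adjusted 5e-05 and 0.0001 over 10 relations among probe sets of the same or a partner gene). Without the 2 mice farthest from the median of C1qa, r was 0.85. The 10 relations were chosen after the values were seen, and the p-values adjusted over them do not account for that choice. C1qa and C1qc gave r = 0.95 and rho = 0.94 (adjusted p = 5e-05 for both, r = 0.93 without the 2 farthest), and C1qb and C1qc gave r = 0.91 and rho = 0.92 (adjusted p = 6.7e-05 and 5e-05, r = 0.87 without the 2 farthest). Mice that were high for their group in 1 of the subunits tended to be high in the others, with TGT-133 and wtt-137 the highest 2 mice and TGT-132 the lowest in C1qa, C1qc and the plain C1qb probe set. The brighter C1qb probe sets followed less closely. C1qa with the brighter x probe set, which stood for C1qb in the 45 pairs, gave r = 0.525 and rho = 0.37. Its permutation p, adjusted over the 45 pairs, was 0.59 and 0.79, and this pair is not among the 10 relations. C1qa with the dimmer x probe set gave r = 0.65 and rho = 0.46 (adjusted p = 0.010 and 0.11). The plain C1qb probe set with the brighter and with the dimmer x probe set gave r = 0.34 and 0.47, with adjusted p of 0.38 and 0.089. Using the probe sets ending in _at for all genes, also a choice made after seeing the data, 1 of 45 pairs passed, C1qa with C1qb (adjusted p = 0.00045).

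**Figure D4:**
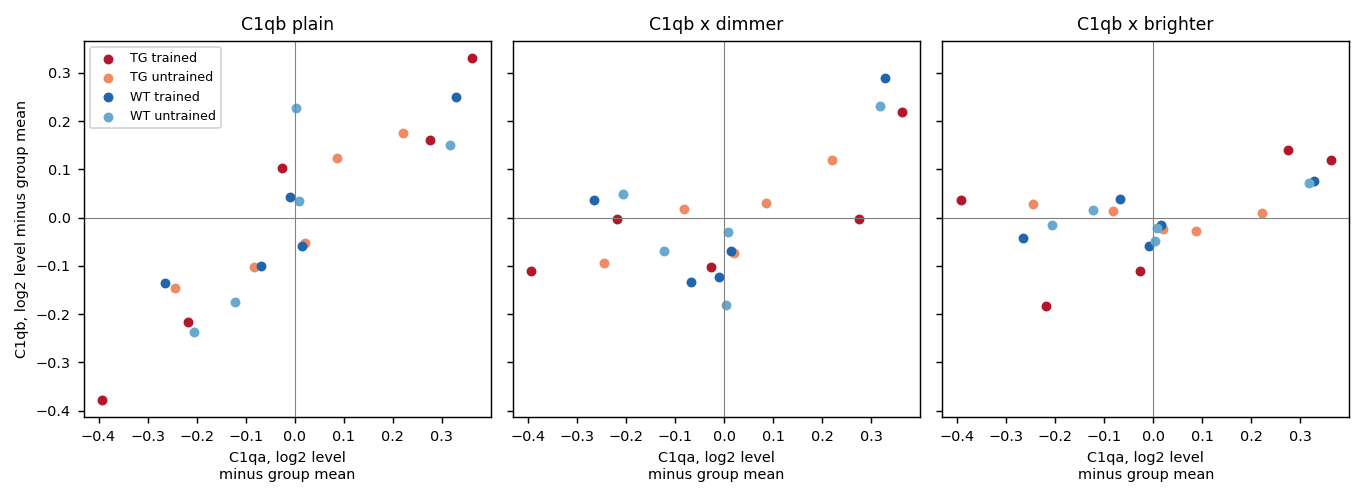
Deviation from the group mean in log2 level of C1qa (x axis) against each of the 3 C1qb probe sets (y axis) in 20 mice, with 1 point per mouse coloured by group. The points lie along a line for the plain probe set (r = 0.90) and are more scattered for the other probe sets.

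Part of the between-mouse variation moved with the level of the whole array. Over 28 relations of 14 probe sets with 2 array measures, the a probe set of Csf1r followed the array's median intensity with r = 0.87 and rho = 0.93 (adjusted p = 0.00028 for both, r = 0.91 without the 2 mice farthest from the median of that measure) and the Gapdh ratio with r = 0.77 and rho = 0.82 (adjusted p = 0.0020 and 0.0007, r = 0.81 without the 2 farthest). The dimmer x probe set of C1qb gave r = 0.83 and rho = 0.79 with the median intensity (adjusted p = 0.0013 and 0.0019, r = 0.75 without the 2 farthest). Mrc1 gave r = 0.70 and rho = 0.57 (adjusted p = 0.0064 and 0.062, r = 0.59 without the 2 farthest), and with the Gapdh ratio r = 0.61 and rho = 0.58 (adjusted p = 0.029 and 0.062, r = 0.58 without the 2 farthest). The s probe set of Csf1r gave r = 0.60 and rho = 0.58 with the median intensity (adjusted p = 0.029 and 0.061, r = 0.59 without the 2 farthest) and r = 0.68 and rho = 0.64 with the Gapdh ratio (adjusted p = 0.019 and 0.028, r = 0.65 without the 2 farthest). C1qa followed the Gapdh ratio with r = 0.56 and rho = 0.50 (adjusted p = 0.038 and 0.10), with r = 0.35 without the 2 farthest mice, and gave r = 0.52 and rho = 0.39 with the median intensity (adjusted p = 0.11 and 0.28, r = 0.26 without the 2 farthest). The dimmer x probe set of C1qb gave r = 0.78 and rho = 0.67 with the Gapdh ratio (adjusted p = 0.0020 and 0.019, r = 0.62 without the 2 farthest). With the Gapdh ratio as a covariate, the interaction was -0.50 for C1qa and -0.29 for Mrc1 (adjusted p = 0.996 and 0.98). With the median intensity, Ctsc gave r = -0.20, Mpeg1 -0.09, Cd68 0.12 and Cd163 -0.08, and none of these passed. Of 12670 tested probe sets without empty cells, 27.4% had an r over 0.5 with the median intensity, and the median r was 0.01. With the Gapdh ratio, 23.3% of them had an r over 0.5, and the median r was -0.016.

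As a description with no test, the genes whose deviations came closest to the mean standardised deviation of the 8 macrophage genes that passed the filter were looked up over the 20 mice. They were Acp5 (r = 0.88), Slc1a5 (0.87), Mmd (0.85), Podxl (0.85), Dtx1 (0.85), Mfsd14b (0.84), Ptms (0.84) and Rtl8c (0.83). Acp5, the first of these, encodes tartrate-resistant acid phosphatase, an enzyme of osteoclasts and of some macrophages. None of these genes was among those of the list of other macrophage and myeloid genes on the array. The mean deviation was highest in wtt-137 (1.26) and TGT-133 (1.10), the mice with the most empty cells, and lowest in TGT-143 (-0.64). The part of array quality in them was not tested.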

How the data were processed

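RNA of skeletal muscle from 20 mice was measured on Affymetrix arrays. The deposited table holds 1 intensity per probe set and array on a linear scale; how the authors summarised and scaled it is not given in the sources used here, and 1745 of its cells are empty. Values were used as deposited, and 66.7 (the 20th percentile of the table) was added before log2, which shrinks differences, most of all for dim genes. Control probe sets (64) were left out, and 22626 were filtered on mean level at the 40th percentile (log2 7.59), leaving 13576. Differences were tested, two-sided, with limma 3.58.1 in R 4.3.3, as 4 group means with a variance trend (16 residual and 3.47 prior degrees of freedom; an empty cell drops that mouse), Benjamini-Hochberg adjusted over the 13576 probe sets, threshold 0.05. The script was tested on simulated data. Correlations used Python 3 scripts and 100000 permutations within groups. Each array is a separate mouse, so p-values measure the spread between mice, whose number limits the precision. No depth exists for arrays.

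The members and gene lists were chosen with earlier results of these data known. A list gene is represented by its brightest probe set. All 10 members are named; from each other list, up to 3 called genes with the smallest adjusted p per contrast and the gene with the highest mean are named, and C1qc was added after its values were seen. Alternatives covered normalization, the added constant, the filter, the variance model, array weights, the groups in the fit, probe sets, arrays with empty cells, the Gapdh ratio and leaving out each mouse.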

Additional observations from a re-analysis of the deposited data

Results flagged for a closer look

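In 56 groups of 4 or 5 mice (14 probe sets in 4 groups), 2 held a mouse that stood farther from its nearest neighbour than Dixon's 95% criterion allows; chance flags about 1 in 20 groups. The s probe set of Csf1r was 578 in WTT-144, the lowest of the trained wild-type mice, whose nearest neighbour had 675. Mrc1 was 151 in wtt-137, the highest of the trained wild-type mice, whose nearest neighbour had 130.9.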

How the results depend on the processing

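With 5 mice a group, small differences could be missed. Counts of called macrophage probe sets changed as follows, and the cause was not tested except where stated. For the transgene averaged over training (1), the count was 0 with arrays centred on their medians and without the filter, which tests more probe sets. For training averaged over genotypes (1), it was 0 with arrays centred on their medians, without the filter, with a filter at the 60th percentile, which leaves Mpeg1 out, and without wtt-137 and TGT-133. Leaving out each mouse in turn gave 0 to 1 for both contrasts. Array weights gave 2 for the transgene in trained mice (Ctsc, Csf1r) and 1 for training in transgenic mice (Mrc1), where none was called before. Of the pairs of genes, 1 passed without wtt-137 and TGT-133 (Cd163 with C1qa, adjusted p = 0.018) and 1 with probe sets ending in _at alone, against 0. No called difference reversed. Over the settings apart from leaving out mice, Ctsc ranged from 0.32 to 0.50 (10 of 12 called) and Mpeg1 from 0.10 to 0.19 (8 of 11 called), and over all alternatives their adjusted p ranged from 0.013 to 0.083 and from 0.0082 to 0.097. The number of probe sets called on the whole array ranged from 79 to 617 for the transgene averaged over training and from 279 to 2716 for training averaged over genotypes. No paired analysis was possible because each mouse carries its own number and the groups share none.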
